A study of Mus musculus with 16 samples.

Results

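Cells of the mouse spinal cord taken 1 d after a lesion of the dorsal columns at cervical level 5 were compared with cells of uninjured spinal cord, with the genotypes pooled. The members are all mice of these time points in the deposited cell table except WT 1 d replicate 2, of which a single cell is left. They are 3 mice at 1 d (1 WT and 2 cKO) and 4 uninjured mice (2 WT and 2 cKO). These are 7 of the 16 mice of the series, with 7903 of its 18203 cells. Of those cells, 4093 came from mice at 1 d and 3810 from uninjured mice. The question was which genes differ 1 d after injury in each of the 17 clusters of the authors, above all in cells other than astrocytes and microglia. The cKO mice carried Rykfl/fl,GFAPcreERT2, in which a tamoxifen-dependent Cre driven by the GFAP promoter deletes the Wnt receptor gene Ryk. The WT mice carried Ryk+/+,GFAPcreERT2. Tamoxifen was given to all groups in 7 daily doses, of which the first fell 5 days before surgery. Age was 8 to 10 weeks throughout. The control mice thus had both the Cre and the drug. The labels call the uninjured group Sham and the paper calls it uninjured, and its cells were taken 14 d after the knockout. Tissue was digested with pronase in the presence of actinomycin D, a blocker of transcription, and dead cells were removed. Each mouse gave 1 library made with 10x v3.1 chemistry, so the replicate is the mouse.

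Depth differed between the mice and with the time point. Uninjured WT mice had 3074681 and 2117284 UMIs (unique molecular identifiers, which count captured RNA molecules) in 980 and 1384 cells. Uninjured cKO mice had 774242 and 1963422 UMIs in 208 and 1238 cells. At 1 d the WT mouse had 536263 UMIs in 1025 cells, and the cKO mice had 666731 and 4601448 UMIs in 1223 and 1845 cells. Values of a pair of mice are given here with replicate 1 before replicate 2. The median UMIs per cell were 2306.5, 1057, 1998.5 and 1040.5 in the uninjured mice in the same order, and 414, 421 and 1514 at 1 d. Both replicate 1 mice at 1 d were shallower than every uninjured mouse. Ryk was counted in every mouse, at 70.9 and 45.3 UMIs per 1000000 UMIs of the mouse in uninjured WT, 58.1 and 65.7 in uninjured cKO, 74.6 in WT at 1 d, and 45.0 and 54.1 in cKO at 1 d. In the clusters annotated as astrocytes (2, 5 and 7) it was at 122.9 and 54.0 per 1000000 in uninjured WT and 66.1 and 85.1 in uninjured cKO. At 1 d it was at 100.8 per 1000000 there in WT (6 UMIs) and at 23 (1 UMI) and 69.0 (64 UMIs) in cKO. Among uninjured mice the genotypes overlapped in these values, and at 1 d the WT mouse was above both cKO mice. Since the deleted exon is not named in the text of the study, the 3′ tags do not check the genotype.

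Some libraries shared cells or went against their labels. WT 1 d replicate 1 and cKO 1 d replicate 1 had 69 cell barcodes in common, 64 of them in the same cluster in both, and other pairs of the 7 mice shared at most 3. Both mice also shared barcodes with the replicate 1 mice of 7 d. In all, 115 of the 1025 cells of WT 1 d replicate 1 (11.2%) and 71 of the 1223 cells of cKO 1 d replicate 1 (5.81%) had such a barcode. Tests were repeated without these cells. The prefixes of the cell names gave another condition than the sample titles for 6 of the 16 mice, among them 2 of the 7 compared: cKO uninjured replicate 2 is named WT 7 d, and WT uninjured replicate 2 is named cKO uninjured. The titles and the animal numbers of the cell table were followed here, and every test was repeated with the conditions of the cell names. Libraries that are both shallow and share barcodes make up 2 of the 3 mice at 1 d, so each count was also obtained with cKO 1 d replicate 2 alone at 1 d, whose spread is then taken to equal that of the groups with several mice.

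In the injured spinal cord, blood vessels near a lesion lose barrier function and their endothelium takes on an activated state in which adhesion molecules capture leukocytes. Microglia lose the genes of their resting state and produce chemokines. Astrocytes and oligodendrocytes take up acute phase genes, which in liver encode plasma proteins induced by inflammatory cytokines through the transcription factor Stat3. Lcn2, an iron-siderophore binding protein, and Serpina3n, a serine protease inhibitor, are known members of that group.

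Outside astrocytes and microglia, few genes passed the test of edgeR at 1 d, and the clearest was Lcn2 in endothelial cells, at 704 ± 270.4 CPM (SD, n = 3) against 9.37 ± 3.42 CPM (SD, n = 4). Endothelial cells also had more Scgb3a1, Adamts9 and Tubb6, while oligodendrocyte precursor cells (OPCs) had more Vgf, nearly all of it in 1 cell. In neurons, pericytes and both clusters annotated as oligodendrocytes no gene passed by edgeR. In both oligodendrocyte clusters Serpina3n lay far above the uninjured mice in all 3 mice at 1 d and passed by DESeq2. Astrocytes of Clusters 5 and 7 had more Hspb1, those of Cluster 5 also more Lcn2 and Timp1 and those of Cluster 7 more Gfap and Serpina3n, while microglia of Clusters 6 and 10 had less P2ry12 and more Calr, Fn1 and Dab2.

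CPM here are UMIs of a gene per 1000000 UMIs of all genes tested in the cluster, after TMM scaling, taken from the summed UMIs of the cluster's cells in each mouse. In such sums, fewer cells of a kind and less RNA per cell cannot be told apart. Whether groups overlap is given after TMM scaling. Of 80 calls whose groups did not overlap, 79 did not before it either (Nat8f3 in Cluster 7 did), and named genes without a call that overlapped before it are marked below. A mouse entered a cluster with 10 or more cells, and 10 of the 17 clusters had at least 2 such mice in both groups. Calls are genes with an adjusted p under 0.05 in the quasi-likelihood test of edgeR, with Benjamini-Hochberg adjustment over all genes tested in the cluster. The filter on low counts needs a gene to be counted in only part of the mice. List members near 0 in uninjured mice could thus be tested because they were high after injury, while silent members dropped out. Counts and medians of lists below cover tested members only and can be raised by this, which was not tested. Over the 10 clusters, 81 calls were made in 71 genes, 68 higher and 13 lower at 1 d. They were in 6 clusters: 23 were in the astrocyte Clusters 5 and 7, 53 in the microglial Clusters 6 and 10, and 5 elsewhere. Of the 81 calls, 79 remained without the cells of shared barcodes, 57 were also made by DESeq2, which gave no adjusted p for 22, and 35 remained with cKO 1 d replicate 2 alone at 1 d. With genotype in the design 49 remained, and 58 with only cells under 10% mitochondrial UMIs. In the fit of the 7 mice alone, where 60 of the 81 passed the filter on low counts, 43 remained. Under the cell names' conditions 2 remained (Gfap in Cluster 7 and Spp1 in Cluster 10). When the mice were dropped 1 at a time, 9 calls remained in every fit: Lcn2 in endothelial cells, Ccl12 in Cluster 6, Hspb1 in Cluster 7, and Lgals1, Dab2, Spp1, Hspa5, Calr and P2ry12 in Cluster 10. With the replicate number, which is the batch of the authors, fitted as a block, 77 of the 81 remained.

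Endothelial cells (Cluster 1) were the largest group of cells, with 298 and 335 cells in the WT and 46 and 344 in the cKO uninjured mice. There were 359 in the WT and 418 and 336 in the cKO mice at 1 d. Cldn5 and Ly6c1 were among their 10 leading genes, and all 5 endothelial markers were above the other clusters. Of 9186 genes tested, 4 rose (0.0435%) and 0 fell (0%), with 531 at an unadjusted p under 0.05, while DESeq2 gave 14 higher and 3 lower. Lcn2 (ENSMUSG00000026822.14, chromosome 2, 32384633 to 32388252 of mm10) stood at 10.8 and 5.66 (WT) and 7.61 and 13.4 CPM (cKO) in uninjured mice, and 1016 (WT), 529.9 and 567 CPM (cKO) at 1 d. All 3 mice at 1 d lay above all 4 uninjured mice, and the WT mouse was the highest. It rose with the largest fold of the 4 (log2 fold change 6.09, standard error 0.75, adjusted p = 0.00155), from 20 UMIs in uninjured to 596 UMIs in injured mice. This call passed whichever mouse was dropped, at adjusted p up to 0.0148. With the conditions of the cell names its adjusted p was 1. A Lcn2 UMI was found in 12.5% (45 of 359 cells, 95% interval 9.29 to 16.4%) of the WT and in 6.70% (28 of 418 cells, 95% interval 4.50 to 9.54%) and 13.1% (44 of 336 cells, 95% interval 9.68 to 17.2%) of the cKO endothelial cells at 1 d. Intervals here and below are by the exact Clopper-Pearson method. The uninjured mice had 2.01 and 0.597% in WT and 2.17 and 1.45% in cKO. Neurons, which should lack Lcn2, had a UMI in 0 of 18, 0 of 96 and 6.61% (23 of 348 cells, 95% interval 4.24 to 9.75%) at 1 d, at median depths of 404, 404 and 2222 UMIs per cell against 376, 382 and 1048 in endothelial cells. The oligodendrocytes of cKO 1 d replicate 2 had one in 9.04% (17 of 188 cells, 95% interval 5.36 to 14.1%) of Cluster 4 and 10.8% (14 of 130 cells, 95% interval 6.01 to 17.4%) of Cluster 8, at 1229 and 1104 UMIs per cell. In that mouse these intervals overlapped with the endothelial one, while the oligodendrocytes of the other 2 mice at 1 d had Lcn2 in 0 of 124, 0 of 63, 0 of 119 and 0 of 59 cells. Other clusters had Lcn2 in all 3 mice at 1 d without a call. Cluster 7 had a Lcn2 UMI in 6 of 72 (WT), 1 of 68 and 3 of 78 cells (cKO). Cluster 6 had one in 1 of 87 (WT), 1 of 120 and 3 of 47 cells (cKO). In both, the uninjured mice had 0. The part of RNA from other cells in the share of cKO 1 d replicate 2 was not tested. No single cell carried the Lcn2 result, since the highest cell held 107 of the 596 UMIs. With the highest cell of each mouse set to the next one, a setting chosen after seeing the data, the log2 fold change was 6.15 (adjusted p = 0.00376).

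**Figure D1:**
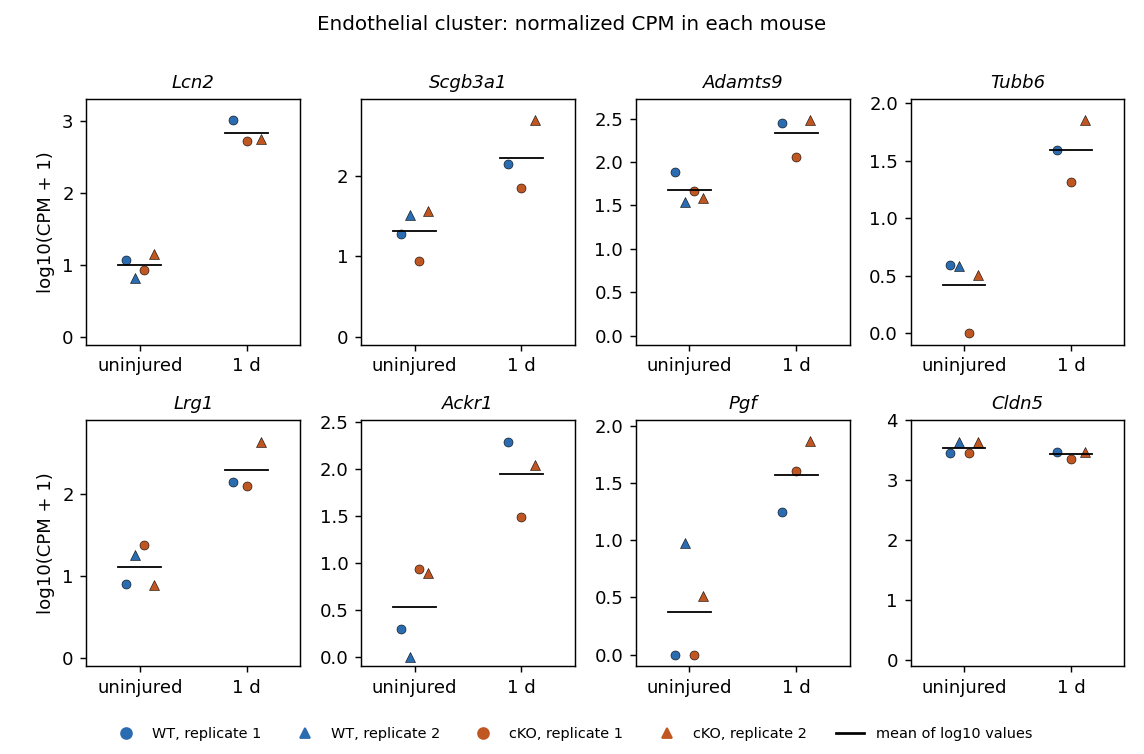
Level of 8 genes in endothelial cells (Cluster 1) of each mouse, as log10 of CPM plus 1, with uninjured mice on the left and mice at 1 d on the right of each panel, circles for replicate 1, triangles for replicate 2, blue for WT, orange for cKO and a line at the mean. Lcn2, Scgb3a1, Adamts9, Tubb6, Lrg1, Ackr1 and Pgf lay higher in all 3 mice at 1 d than in all 4 uninjured mice, whereas Cldn5 overlapped.

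The other endothelial calls were a metalloprotease, a secreted protein and a tubulin. Adamts9 (ENSMUSG00000030022.14, chromosome 6, 92772699 to 92943492), a secreted protease of the extracellular matrix, was at 76.6 and 34 (WT) and 45.6 and 38 CPM (cKO) in uninjured mice, and 282 (WT), 114 and 301 CPM (cKO) at 1 d, and rose (log2 fold change 2.19, standard error 0.34, adjusted p = 0.0151). Scgb3a1, a secretoglobin, was at 17.7 and 31.1 (WT) and 7.61 and 35.7 CPM (cKO) in uninjured mice, and 138 (WT), 69.3 and 491 CPM (cKO) at 1 d, and rose as well (log2 fold change 3.35, standard error 0.52, adjusted p = 0.0151). Tubb6, a beta-tubulin of the cytoskeleton, was at 2.94 and 2.83 (WT) and 0 and 2.23 CPM (cKO) in uninjured mice, and 38.6 (WT), 19.8 and 70.6 CPM (cKO) at 1 d, a rise from 5 to 49 UMIs (log2 fold change 4.12, standard error 0.68, adjusted p = 0.022). For each of these genes the 3 mice at 1 d lay above the 4 uninjured mice, and for Scgb3a1 cKO 1 d replicate 2 was far above the other mice at 1 d. These 3 calls depended on single mice. Adamts9 missed the threshold without WT 1 d replicate 1 (adjusted p = 0.0844), WT uninjured replicate 2 (adjusted p = 0.0538), cKO 1 d replicate 2 (adjusted p = 0.255), cKO uninjured replicate 1 (adjusted p = 0.0622) and cKO uninjured replicate 2 (adjusted p = 0.111). Scgb3a1 missed it without WT uninjured replicate 1 (adjusted p = 0.0785), WT uninjured replicate 2 (adjusted p = 0.0538), cKO 1 d replicate 2 (adjusted p = 0.311), cKO uninjured replicate 1 (adjusted p = 0.0622) and cKO uninjured replicate 2 (adjusted p = 0.0553). Tubb6 missed it without WT 1 d replicate 1 (adjusted p = 0.0844), WT uninjured replicate 1 (adjusted p = 0.0968), WT uninjured replicate 2 (adjusted p = 0.0538), cKO 1 d replicate 2 (adjusted p = 0.391), cKO uninjured replicate 1 (adjusted p = 0.0622) and cKO uninjured replicate 2 (adjusted p = 0.111). The count of calls was 6 without cKO 1 d replicate 1, 2 without WT 1 d replicate 1 or WT uninjured replicate 1, and 1 without any other mouse. With the conditions of the cell names no gene was called by edgeR, with 242 at an unadjusted p under 0.05. With cKO 1 d replicate 2 alone at 1 d the count was 23, and with the replicate number as a block it was 7, with Pgf, Lrg1 and Ackr1 in addition.

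Genes of endothelial activation and sprouting were mostly on the higher side at 1 d. Of the 20 listed, 16 were tested, 1 rose (Adamts9), 7 had all mice at 1 d above all uninjured mice (2.42% of all genes tested) and 1 had them below (2.88%), with a median log2 fold change of 1.13 against −0.01 over all genes tested. Lrg1, a secreted glycoprotein that acts on TGF-beta signalling in vessels, was at 6.87 and 17 (WT) and 22.8 and 6.70 CPM (cKO) in uninjured mice, and 138 (WT), 124 and 433 CPM (cKO) at 1 d (log2 fold change 4.56, adjusted p = 0.124). Ackr1, the chemokine-binding receptor of venules, was at 0.982 and 0 (WT) and 7.61 and 6.70 CPM (cKO) in uninjured mice, and 193 (WT), 29.7 and 109.6 CPM (cKO) at 1 d (adjusted p = 0.124). Pgf, a growth factor of the VEGF family, was at 0 and 8.49 (WT) and 0 and 2.23 CPM (cKO) in uninjured mice, and 16.6 (WT), 39.6 and 72.5 CPM (cKO) at 1 d (adjusted p = 0.124). These 3 genes separated the groups without passing the test, at levels that were near 0 in uninjured mice. They did pass with the replicate block (adjusted p = 0.0441 for each) and without the cells that the deposited table moved into this cluster from Cluster 2 (adjusted p = 0.0398, 0.0398 and 0.0282). DESeq2 called Pgf (adjusted p = 0.0471), and the fit of the 7 mice alone called Lrg1 (adjusted p = 0.0469) beside Lcn2. That fit did not call Adamts9 (adjusted p = 0.252) or Scgb3a1 (adjusted p = 0.293), and Tubb6 did not pass its filter on low counts. Icam1, an adhesion molecule for leukocytes, was at 63.8 and 11.3 (WT) and 45.6 and 44.7 CPM (cKO) in uninjured mice, and 237 (WT), 109 and 126 CPM (cKO) at 1 d (log2 fold change 1.80, adjusted p = 0.454). Vcam1 and Vwf were likewise higher in each mouse at 1 d, by 1.24 and 1.09 on the log2 scale. The apelin receptor gene Aplnr was lower in each (log2 fold change −1.68), and none of the 3 passed the test. Before TMM scaling Vwf overlapped between the groups and 6 of the 7 genes of the list lay higher. The list of acute phase and reactive glia genes also holds Ch25h, an enzyme that makes 25-hydroxycholesterol, which was at 5.89 and 5.66 (WT) and 0 and 2.23 CPM (cKO) in uninjured mice, and 38.6 (WT), 34.7 and 104 CPM (cKO) at 1 d (adjusted p = 0.124). Ch25h passed by DESeq2 (adjusted p = 0.0255) and without the moved cells (adjusted p = 0.0398). Of 11 tested genes of that list 1 rose, 3 separated upward, and the median was 0.71 against −0.01 over all genes tested.

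Barrier genes of endothelial cells gave no calls by edgeR. Of 20 tested, 0 were called by edgeR, 0 had all mice at 1 d above (2.42% of all genes tested) and 4 had them below the uninjured mice (2.88%, 1 of the 4 also before TMM scaling), and the median log2 fold change was −0.34 against −0.01 over all genes tested. Over all genes of the cluster, 531 were at an unadjusted p under 0.05 and 17 were called by DESeq2. Slc22a8, an organic anion transporter, was at 459 and 473 (WT) and 563 and 507 CPM (cKO) in uninjured mice, and 287 (WT), 327 and 188 CPM (cKO) at 1 d (log2 fold change −0.92, adjusted p = 0.298). It was among the genes called lower by DESeq2 (adjusted p = 0.00531). Slco1c1, a transporter of thyroid hormone, was at 1756 and 1852 (WT) and 1848 and 2010.4 CPM (cKO) in uninjured mice, and 1236 (WT), 1451 and 1226 CPM (cKO) at 1 d (log2 fold change −0.52). In both genes every mouse at 1 d was below every uninjured mouse, for Slco1c1 only after TMM scaling. The drug efflux pump gene Abcg2 (log2 fold change −0.33) and the proteoglycan gene Spock2 (−0.76) also separated the groups downward, and both overlapped before TMM scaling. The tight junction gene Cldn5 was at 2817 and 4386 (WT) and 2913 and 4320.1 CPM (cKO) in uninjured mice, and 3014 (WT), 2298 and 2989.9 CPM (cKO) at 1 d, with overlapping groups, as were Ocln, the glucose transporter gene Slc2a1 and the lipid transporter gene Mfsd2a. Interferon response genes were 22 of 22 tested with none called by edgeR. All mice at 1 d lay above the uninjured mice in 2 of them (Ifitm1 and Ifitm2) and below in 1 (Irf7, overlapping before TMM scaling), beside the 2.42% and 2.88% of all genes, with a median of −0.11 against −0.01 over all genes tested. DESeq2 called Ifitm1 higher (adjusted p = 0.0371). Of the chemokines, Cxcl1, which attracts neutrophils, and the growth factor gene Csf1 were higher in each mouse at 1 d, by 2.86 and 0.82 on the log2 scale, without passing the test.

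Markers of other cells in the endothelial cluster did not divide the groups. Lcn2 is itself a neutrophil gene. The 5 neutrophil markers summed to 0.982 and 93.4 (WT) and 7.61 and 0 CPM (cKO) in uninjured mice, and 0 (WT), 0 and 139 CPM (cKO) at 1 d. S100a9 was the most abundant at 1 d with 37 UMIs, all from cKO 1 d replicate 2, and Cxcr2 was at 0 UMIs in all 7 mice. Both replicate 1 mice at 1 d had 0 UMIs of these 5 markers. The 5 red blood cell markers summed to 784 and 11512 (WT) and 7.61 and 89.4 CPM (cKO) in uninjured mice, and 166 (WT), 24.8 and 749 CPM (cKO) at 1 d. Pericyte and smooth muscle markers summed to 620.5 and 974 (WT) and 715 and 704 CPM (cKO) in uninjured mice, and 458 (WT), 549.8 and 1706 CPM (cKO) at 1 d. Both overlapped between the groups. Oligodendrocyte markers summed to 978 and 10230 (WT) and 1217 and 9657 CPM (cKO) in uninjured mice. At 1 d they summed to 894 (WT), 2254 and 4800 CPM (cKO). Astrocyte markers summed to 167 and 2358 (WT) and 266 and 1800 CPM (cKO) in uninjured mice. At 1 d they summed to 88.3 (WT), 163 and 1691 CPM (cKO). These sums also overlapped, with replicate 2 mice above replicate 1 mice, and their part in the calls was not tested.

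OPCs (Cluster 11), the precursors that renew oligodendrocytes, had Vcan among their leading genes. They were tested in 3 mice at 1 d and 3 uninjured mice, since cKO uninjured replicate 1 had under 10 cells. Of 3416 genes, 1 rose (0.0293%) and 0 fell (0%), with 189 at an unadjusted p under 0.05, while DESeq2 gave 1 as well. Vgf (ENSMUSG00000037428.14, chromosome 5, 137026392 to 137033351), which encodes a precursor of secreted neuropeptides, was at 0 and 0 (WT) and 0 CPM (cKO) in uninjured mice, and 240.05 (WT), 336 and 951 CPM (cKO) at 1 d. With 102 UMIs at 1 d and 0 in uninjured mice, it was at least 38.8-fold higher, against a floor of 3 counts over the uninjured mice (adjusted p = 0.00375). This bound pools the UMIs of the mice. Without cKO 1 d replicate 2, 15 UMIs were left and the bound was 16.3-fold, and without WT uninjured replicate 1 it was 16.4-fold. This call rested on very few cells. The UMIs were in 2 of 32 cells of the WT mouse (4 UMIs) and in 2 of 82 (11 UMIs) and 1 of 42 (87 UMIs) of the cKO mice, so 1 cell held 85.3% of them. With the highest cell of each mouse set to the next one, Vgf no longer passed the filter on low counts and no gene was called by edgeR, with 116 at an unadjusted p under 0.05. Vgf missed the threshold without WT uninjured replicate 1 (adjusted p = 0.0533) and cKO 1 d replicate 2 (adjusted p = 0.375), and also with only the 7 mice in the fit, with genotype in the design, and under the cell names' conditions. Pericytes had 0 Vgf UMIs in every mouse, but other cells of cKO 1 d replicate 2 had them. Its shares of cells with a Vgf UMI were 8.91% (31 of 348) in neurons and 8.44% (20 of 237) in Cluster 5. They were 6.9% (13 of 188) in Cluster 4 and 6.15% (8 of 130) in Cluster 8, against 2.38% (1 of 42) in OPCs. In the replicate 1 mice at 1 d OPCs had 6.25 and 2.44%, against 0 and 0.84% in Cluster 4 and 1.54 and 2.78% in Cluster 5. The part of RNA from other cells was not tested. The 5 microglia markers of the OPC cluster overlapped between the groups after TMM scaling and were higher in every mouse at 1 d before it, with 9 UMIs of C1qa at 1 d, and their part was not tested.

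Other OPC values gave no calls. Serpina3n was at 43.1 and 0 (WT) and 0 CPM (cKO) in uninjured mice, and 780.2 (WT), 91.7 and 525 CPM (cKO) at 1 d (log2 fold change 4.19, adjusted p = 0.812), and 36 of its 64 UMIs at 1 d were in 1 cell. Vim, an intermediate filament gene, was at 21.6 and 0 (WT) and 0 CPM (cKO) in uninjured mice, and 240.05 (WT), 91.7 and 186 CPM (cKO) at 1 d (log2 fold change 3.70). Ednrb, the endothelin receptor B gene, was at 205 and 141 (WT) and 246 CPM (cKO) in uninjured mice, and 120.02 (WT), 0 and 21.9 CPM (cKO) at 1 d (log2 fold change −2.68). The first 2 of these genes were higher and the last was lower in every mouse at 1 d (3.45% of all genes tested separated upward and 5.12% downward), and none passed the test. Ednrb overlapped before TMM scaling. Of the 16 listed OPC identity and growth genes, 14 were tested, 0 had the mice at 1 d above and 0 below the uninjured mice, and the median log2 fold change was −0.66 against −0.05 over all genes tested.

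Clusters 4 and 8 were annotated as oligodendrocytes by the authors. All 5 oligodendrocyte markers were higher in each than in the other clusters, but none was among the 10 leading genes, which began with Opalin and Ptgds in Cluster 4 and with Klk6 and Nkx2-9 in Cluster 8. By edgeR, 0 of 4414 genes passed in Cluster 4 (0% higher and 0% lower), with 191 at an unadjusted p under 0.05 and 3 called by DESeq2 (Add3, Gpd1 and Serpina3n). In Cluster 8, 0 of 3691 passed by edgeR (0% higher and 0% lower), with 206 at an unadjusted p under 0.05 and 4 called by DESeq2, of which Serpina3n was higher and Gphn, Mbp and S100b lower. Single mice changed these counts. Cluster 4 had 1 call without WT uninjured replicate 1, and with the replicate number as a block it had 1. Cluster 8 had 139 calls, 52 higher and 87 lower, without WT uninjured replicate 1, and 1 with the block.

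Serpina3n stood out in both oligodendrocyte clusters. In Cluster 4 it was at 9.57 and 27.6 (WT) and 12.9 and 0 CPM (cKO) in uninjured mice, and 692 (WT), 474 and 478 CPM (cKO) at 1 d (log2 fold change 5.47, adjusted p = 0.203), with 244 UMIs at 1 d and 7 in uninjured mice. In Cluster 8 it was at 68.7 and 26.4 (WT) and 0 CPM (cKO) in uninjured mice, and 2241 (WT), 1519.7 and 1611 CPM (cKO) at 1 d (log2 fold change 5.24, adjusted p = 0.108), with 581 UMIs against 17. All mice at 1 d lay above all uninjured mice in both clusters, by a wide gap. DESeq2 and the fit with the replicate block put Serpina3n past the threshold in both. At 1 d a Serpina3n UMI was found in 17.7% (22 of 124 cells, 95% interval 11.5 to 25.6%) of the WT and in 13.4% (16 of 119 cells, 95% interval 7.88 to 20.9%) and 26.1% (49 of 188 cells, 95% interval 19.9 to 33%) of the cKO cells of Cluster 4. In Cluster 8 the shares were 57.1% (36 of 63 cells, 95% interval 44 to 69.5%), 16.9% (10 of 59 cells, 95% interval 8.44 to 29%) and 48.5% (63 of 130 cells, 95% interval 39.6 to 57.4%). The uninjured mice had 2.29 and 1.56% (WT) and 3.45 and 0% (cKO) in Cluster 4, and 21.7% (13 of 60 cells, 95% interval 12.1 to 34.2%) and 1.64% (WT) and 0% (cKO) in Cluster 8. In Cluster 8 the shares thus overlapped, since WT uninjured replicate 1, at 3408 UMIs per cell, was above cKO 1 d replicate 1. Pericytes had 1.33% (1 of 75 cells), 0% (0 of 79 cells) and 5.56% (3 of 54 cells), at median depths of 387, 415 and 1988 UMIs per cell, against 486, 521 and 1229 in Cluster 4 and 616, 858 and 1104 in Cluster 8. Neurons of cKO 1 d replicate 2 had one in 15.5% (54 of 348 cells, 95% interval 11.9 to 19.8%), at 2222 UMIs per cell. With that mouse alone at 1 d, the log2 fold change of Serpina3n was 4.69 in neurons and 8.97 in endothelial cells. Endothelial cells had a Serpina3n UMI in 1.11% (4 of 359), 0.48% (2 of 418) and 10.1% (34 of 336) of cells at 1 d, and in 0% in each uninjured mouse.

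**Figure D2:**
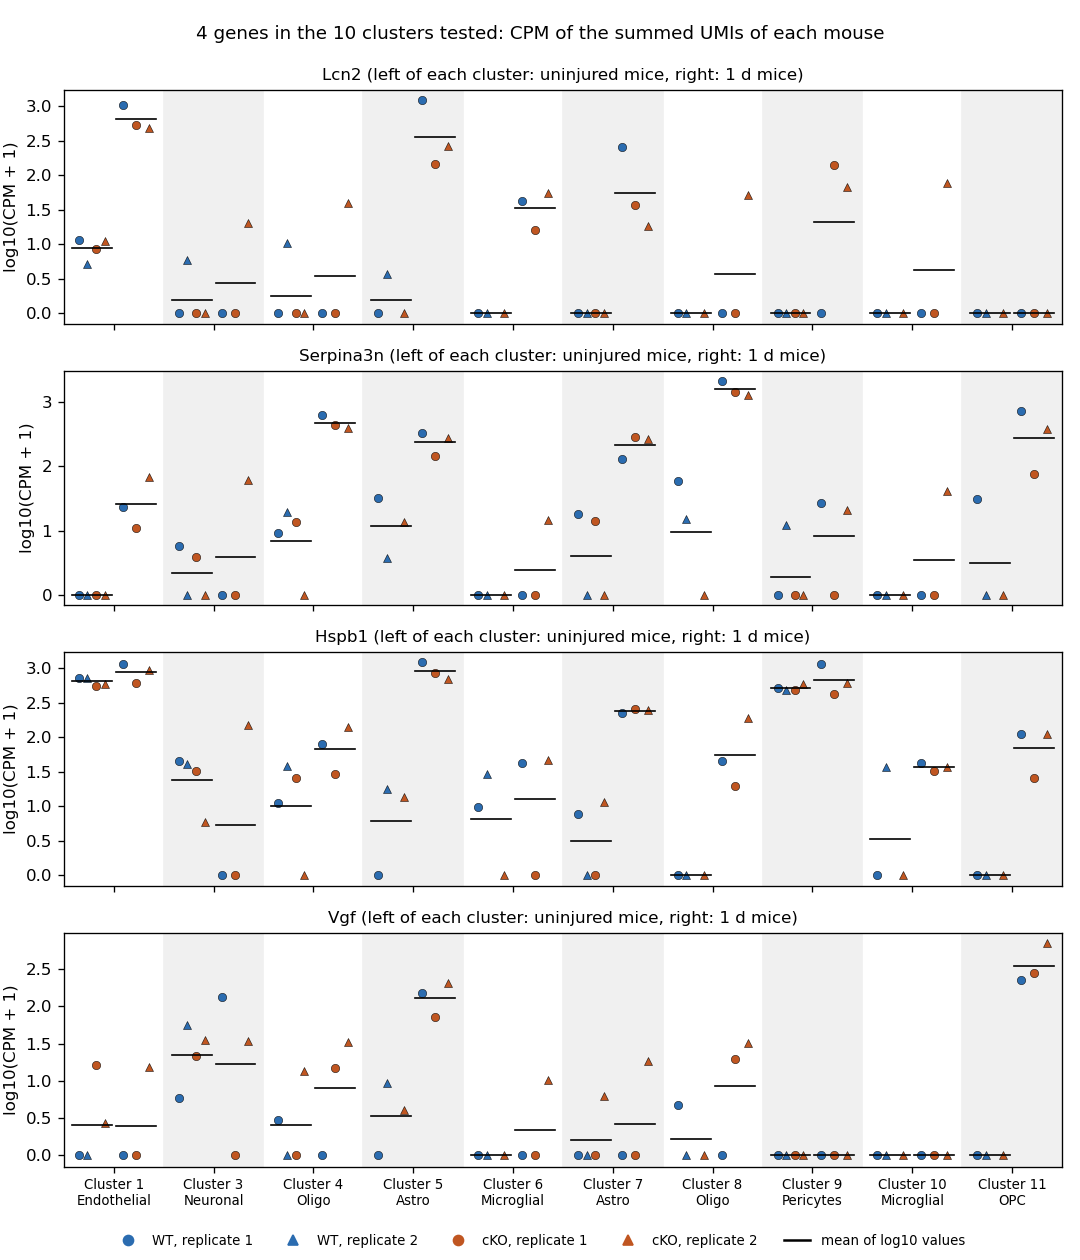
Lcn2, Serpina3n, Hspb1 and Vgf in the 10 tested clusters of each mouse, in UMIs of the gene per 1000000 summed UMIs of the cluster, without TMM scaling, with uninjured mice and mice at 1 d side by side. Serpina3n of Clusters 1, 4, 5, 7, 8 and 11 and Lcn2 of Clusters 1, 5, 6 and 7 lay higher in every mouse at 1 d than in every uninjured mouse. So did Hspb1 of Clusters 5, 7, 8 and 11 and Vgf of Clusters 5 and 11.

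Another 4 genes of these clusters are described here, chosen after their values were seen. Klk6, a secreted protease, was at 105 and 27.6 (WT) and 77.2 and 0 CPM (cKO) in uninjured mice, and 658 (WT), 351 and 196 CPM (cKO) at 1 d in Cluster 4 (log2 fold change 2.52) and at 1477 and 1028 (WT) and 917 CPM (cKO) in uninjured mice, and 4792 (WT), 2318 and 2797 CPM (cKO) at 1 d in Cluster 8 (1.52). Cd63, a protein of late endosomes, was at 199 and 124 (WT) and 193 and 177 CPM (cKO) in uninjured mice, and 363 (WT), 489 and 906 CPM (cKO) at 1 d in Cluster 4 (log2 fold change 1.78) and at 25.8 and 237 (WT) and 83.4 CPM (cKO) in uninjured mice, and 596 (WT), 292 and 445 CPM (cKO) at 1 d in Cluster 8 (2.25). Both genes separated the groups in both clusters, and neither passed the test. Gpd1, an enzyme between glycolysis and lipid synthesis, was at 81.3 and 152 (WT) and 77.2 and 0 CPM (cKO) in uninjured mice, and 381 (WT), 382 and 401 CPM (cKO) at 1 d in Cluster 4 (log2 fold change 2.25) and at 103 and 79.1 (WT) and 125 CPM (cKO) in uninjured mice, and 429 (WT), 273 and 299 CPM (cKO) at 1 d in Cluster 8 (1.69). The stress gene Gadd45b was at 12 and 0 (WT) and 12.9 and 19.6 CPM (cKO) in uninjured mice, and 121 (WT), 76.4 and 210.03 CPM (cKO) at 1 d in Cluster 4 (log2 fold change 3.66, adjusted p = 0.356). Over all genes tested, 3.08% separated the groups upward and 2.08% downward in Cluster 4, and 4.9% and 2.38% did so in Cluster 8. Whether the clusters differ from each other in these genes was not tested.

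Myelin RNA differed between the mice of Cluster 8. The 5 oligodendrocyte markers summed to 65008 and 100659 (WT) and 126921 CPM (cKO) in uninjured mice, and 44708 (WT), 50911 and 41801 CPM (cKO) at 1 d. Every mouse at 1 d was below every uninjured mouse. Mbp, the myelin basic protein, was at 5002 and 53610.5 (WT) and 66999.5 CPM (cKO) in uninjured mice, and 4959 (WT), 5981 and 9272 CPM (cKO) at 1 d there, with WT uninjured replicate 1 as low as the mice at 1 d. The 5 OPC markers of that cluster summed to 292 and 343 (WT) and 125 CPM (cKO) in uninjured mice, and 358 (WT), 292 and 453 CPM (cKO) at 1 d, with overlapping groups, and before TMM scaling they were higher in every mouse at 1 d. TMM factors were 1.03 and 0.605 (WT) and 0.566 (cKO) in uninjured mice and 1.11, 1.13 and 0.989 at 1 d. The part of these differences in the values of Cluster 8 was not tested. In Cluster 4, 0 of 14 tested heat shock and protein folding genes separated the groups upward (3.08% of all genes) or downward (2.08%), and none passed. Of the 14, 13 had a positive log2 fold change, with a median of 0.59 against −0.02 over all genes tested.

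Neurons (Cluster 3), with Rbfox3, Meg3 and Snhg11 among their leading genes, had 0 calls by edgeR among 7059 genes (0% higher and 0% lower), 257 genes at an unadjusted p under 0.05, and 0 calls by DESeq2, with 106. Without cKO uninjured replicate 2, or without WT uninjured replicate 2, 1 gene was called lower. WT 1 d replicate 1 had 18 neurons and cKO 1 d replicate 1 had 96, so their values rest on few UMIs. TMM factors of neurons were 2.22 in WT 1 d replicate 1, 1.06 and 0.974 in the cKO mice at 1 d, 0.986 and 0.7 in uninjured WT and 1.15 and 0.658 in uninjured cKO mice. Nefh, the heavy neurofilament chain, was at 517 and 345 (WT) and 235 and 477 CPM (cKO) in uninjured mice, and 129.6 (WT), 43.9 and 173 CPM (cKO) at 1 d (log2 fold change −1.50, unadjusted p = 0.00134 and adjusted p = 1 by edgeR). Every mouse at 1 d lay below every uninjured mouse, with 2, 2 and 178 UMIs at 1 d. Before TMM scaling the groups overlapped, with WT 1 d replicate 1 at 288 and WT uninjured replicate 2 at 241 UMIs per 1000000. Fkbp5, a chaperone that glucocorticoids induce, was at 59.8 and 38.3 (WT) and 14 and 16.2 CPM (cKO) in uninjured mice, and 129.6 (WT), 65.8 and 83.4 CPM (cKO) at 1 d (log2 fold change 1.47), higher in each mouse at 1 d, with 2, 3 and 86 UMIs. The potassium channel gene Kcnj3 was at 158 and 146 (WT) and 126 and 97 CPM (cKO) in uninjured mice, and 324 (WT), 175 and 309 CPM (cKO) at 1 d (log2 fold change 1.05), with 5, 8 and 319 UMIs at 1 d. Of 16 neuronal identity and synaptic genes, all tested, 4 separated downward (Stmn3, Nefh, and the transporter genes Slc17a6 of glutamatergic and Slc6a5 of glycinergic neurons) against 3.77% of all genes, 0 upward (0.779%), and the median was −0.54 against −0.09 over all genes tested. In the 2 replicate 1 mice at 1 d these 4 genes had 0 to 8 UMIs each, and before TMM scaling all 4 overlapped between the groups. Neuron markers summed to 17067 and 9538 (WT) and 20232 and 5191 CPM (cKO) in uninjured mice. At 1 d they summed to 11338 (WT), 24907 and 9681 CPM (cKO). Oligodendrocyte markers summed to 7422 and 17857 (WT) and 6898 and 20560 CPM (cKO) in uninjured mice. At 1 d they summed to 1879 (WT), 5065 and 8382 CPM (cKO). Both sums overlapped between the groups, and their part in these values was not tested. Among 7 tested genes of axonal injury and regeneration, the transcription factor gene Klf6 was at 43.5 and 23 (WT) and 11.2 and 24.3 CPM (cKO) in uninjured mice, and 64.8 (WT), 43.9 and 47.5 CPM (cKO) at 1 d. These are 1, 2 and 49 UMIs at 1 d, and the lowest of them barely exceeded the highest uninjured mouse. Tubb3 was below the uninjured mice, with 0, 0 and 50 UMIs. Gap43, Gal, Jun and Stmn2 overlapped between the groups, and Atf3 and Sprr1a, which axotomy induces in sensory neurons, did not pass the filter on low counts in this cluster.

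Pericytes and smooth muscle cells (Cluster 9), with Acta2, Tagln, Vtn and Kcnj8 among the leading genes, also had 0 calls by edgeR among 4696 genes (0% higher and 0% lower), with 183 at an unadjusted p under 0.05 and 0 calls by DESeq2, with 130. Without WT 1 d replicate 1 there were 2, both higher, and with cKO 1 d replicate 2 alone at 1 d there were 7. Slc22a8 was at 274 and 309 (WT) and 539 and 358 CPM (cKO) in uninjured mice, and 144 (WT), 26.3 and 82.3 CPM (cKO) at 1 d (log2 fold change −2.07, adjusted p = 0.36). Axin2, a target of Wnt and beta-catenin signalling, was at 68.4 and 123 (WT) and 108 and 309 CPM (cKO) in uninjured mice, and 0 (WT), 26.3 and 36.6 CPM (cKO) at 1 d (log2 fold change −2.35). In both genes every mouse at 1 d was below the uninjured mice. Of the 20 barrier genes tested here, 5 separated downward (2.47% of all genes; 2.28% upward), with Slco1c1, Slc16a1 and Slc7a5 the others (the last 2 overlapped before TMM scaling), and the median was −0.57 against −0.01 over all genes tested. The 5 endothelial markers of this cluster summed to 6916 and 6588 (WT) and 7039.7 and 5986 CPM (cKO) in uninjured mice, and 7259.9 (WT), 5944 and 6467 CPM (cKO) at 1 d, with overlapping groups and Flt1 (499 UMIs) the most abundant at 1 d. In the endothelial cluster they summed to 12805 and 12466 (WT) and 14586 and 12983 CPM (cKO) in uninjured mice, and 12236 (WT), 12948 and 12518 CPM (cKO) at 1 d. The part of endothelial RNA in the barrier genes of this cluster was not tested. Fn1, the matrix protein fibronectin, was at 269 and 401 (WT) and 215 and 228 CPM (cKO) in uninjured mice, and 662 (WT), 421 and 595 CPM (cKO) at 1 d (log2 fold change 0.99). Lgals1, a galectin, was at 86.7 and 108 (WT) and 35.9 and 146 CPM (cKO) in uninjured mice, and 202 (WT), 421 and 640.2 CPM (cKO) at 1 d (log2 fold change 2.18, adjusted p = 0.409). Both lay higher in each mouse at 1 d and did not pass. The 15 tested genes of pericyte and smooth muscle identity had none that separated the groups, with a median of −0.10 against −0.01 over all genes tested.

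Cluster 5, an astrocyte cluster led by Baalc, Aldoc and Cabp7, had 9 genes higher of 4709 (0.191%) and 0 lower (0%) in 3 against 3 mice, with 235 at an unadjusted p under 0.05, while DESeq2 gave 8. Hspb1, a small heat shock protein, was at 0 and 30 (WT) and 23.1 CPM (cKO) in uninjured mice, and 1039 (WT), 558 and 958 CPM (cKO) at 1 d (log2 fold change 5.27, standard error 0.93, adjusted p = 0.0209). Hmox1, the enzyme that breaks down heme, was at 0 and 5.00 (WT) and 0 CPM (cKO) in uninjured mice, and 598 (WT), 139 and 248 CPM (cKO) at 1 d (log2 fold change 6.70, standard error 1.00, adjusted p = 0.0044). Timp1, an inhibitor of metalloproteases, was at 16.9 and 0 (WT) and 0 CPM (cKO) in uninjured mice, and 157 (WT), 232 and 144 CPM (cKO) at 1 d (log2 fold change 5.69, standard error 1.07, adjusted p = 0.0336). All mice at 1 d lay above all uninjured mice in each gene, and most uninjured values were at or near 0. Lcn2 was at 0 and 5.00 (WT) and 0 CPM (cKO) in uninjured mice, and 1039 (WT), 93 and 355 CPM (cKO) at 1 d (log2 fold change 7.32, standard error 1.09, adjusted p = 0.0044), with 33, 2 and 126 UMIs at 1 d, 61 of them in 1 cell. A Lcn2 UMI was found in 21.5% (14 of 65 cells, 95% interval 12.3 to 33.5%), 2.78% (1 of 36 cells, 95% interval 0.0703 to 14.5%) and 11.8% (28 of 237 cells, 95% interval 8.00 to 16.6%) of these cells at 1 d. In cKO 1 d replicate 2 a Lcn2 UMI was also found in 6.61% of neurons, 9.04% of Cluster 4, 10.8% of Cluster 8 and 13% of pericytes. Median depths there were 2222, 1229, 1104 and 1988 UMIs per cell, against 1780 in Cluster 5. The part of RNA from other cells was not tested. Vgf was at 0 and 15 (WT) and 5.78 CPM (cKO) in uninjured mice, and 126 (WT), 46.5 and 279 CPM (cKO) at 1 d (log2 fold change 4.32, standard error 0.75, adjusted p = 0.0209), 70 of 104 UMIs in 1 cell. A Vgf UMI was found in 1 of 65, 1 of 36 and 20 of 237 (8.44%) of these cells at 1 d. In cKO 1 d replicate 2 it was also found in 8.91% of neurons and 6.9% of Cluster 4. Cebpd, Tnfrsf12a, Ano6 and Slc5a3 rose too, by 4.51, 3.88, 2.95 and 2.69 on the log2 scale. Hspb1 missed the threshold without WT uninjured replicate 2 (adjusted p = 0.134) and cKO uninjured replicate 2 (adjusted p = 0.245), Hmox1 without WT uninjured replicate 2 (adjusted p = 0.0826) and cKO uninjured replicate 2 (adjusted p = 0.138), Timp1 without WT uninjured replicate 2 (adjusted p = 0.134), cKO 1 d replicate 1 (adjusted p = 0.0569), cKO 1 d replicate 2 (adjusted p = 0.143) and cKO uninjured replicate 2 (adjusted p = 0.245), and Lcn2 without WT uninjured replicate 2 (adjusted p = 0.0826) and cKO uninjured replicate 2 (adjusted p = 0.138). The count was 0 without cKO uninjured replicate 2 or WT uninjured replicate 2, 4 without cKO 1 d replicate 2, 6 (4 of the 9) without cKO 1 d replicate 1, 15 (6 of the 9) without WT 1 d replicate 1, and 35 (all 9) without WT uninjured replicate 1. It was 24 with the replicate block and 2 (Hmox1 and Hspb1) with the highest cell set to the next. Gfap, the astrocyte filament gene, was at 624 and 1064 (WT) and 1074 CPM (cKO) in uninjured mice, and 2361 (WT), 1627 and 2187 CPM (cKO) at 1 d and was not called. Of 10 tested acute phase and reactive glia genes 2 rose and 9 separated upward (3.89% of all genes, and 8 of the 9 before TMM scaling), with a median of 3.95 against −0.15 over all genes tested. Downward, 6.09% of all genes separated the groups. Of 14 tested heat shock and protein folding genes 1 rose and separated upward (Hspb1), with a median of −0.30 against −0.15 over all genes tested.

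Cells of Cluster 5 also differed in mitochondrial RNA. Its median percent per cell was 10.6 and 12.8 (WT) and 15.4 (cKO) in uninjured mice, and 5.18 (WT), 3.58 and 9.27 (cKO) at 1 d, lower in every mouse at 1 d. None of the 9 genes was called among cells under 10% mitochondrial UMIs, where 0 of 2501 genes passed by edgeR and 131 were at an unadjusted p under 0.05. None was called with the 7 mice alone either, where 0 passed and 87 were at an unadjusted p under 0.05. The 6 astrocyte markers summed to 16386 and 21205 (WT) and 20689.7 CPM (cKO) in uninjured mice, and 10859 (WT), 8876 and 15729.5 CPM (cKO) at 1 d, with Slc1a2 (3093 UMIs) the most abundant at 1 d. The 5 fibroblast markers summed to 219 and 135 (WT) and 98.2 CPM (cKO) in uninjured mice, and 31.5 (WT), 92.9 and 90.2 CPM (cKO) at 1 d, with Col1a2 (25 UMIs) the most abundant and Lum at 0 UMIs at 1 d. Both sums were lower in every mouse at 1 d after TMM scaling and overlapped before it. Schwann cell, ependymal and OPC markers were higher in every mouse at 1 d before TMM scaling and overlapped after it. The oligodendrocyte markers summed to 2647 and 26132 (WT) and 33859 CPM (cKO) in uninjured mice. At 1 d they summed to 1385 (WT), 2323 and 11638 CPM (cKO), with overlapping groups. In both uninjured replicate 2 mice they exceeded the astrocyte markers. TMM factors were 1.07 and 0.607 (WT) and 0.589 (cKO) in uninjured mice and 1.39, 1.83 and 0.866 at 1 d. The part of these differences in the calls was not tested.

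Cluster 7, annotated as astrocytes by the authors and led by Gm20713, Gpc5 and Trp63, had 12 genes higher (0.224%) and 2 lower (0.0374%) of 5351, in 3 against 4 mice. Hspb1 was at 7.95 and 0 (WT) and 0 and 13.3 CPM (cKO) in uninjured mice, and 225 (WT), 252 and 289 CPM (cKO) at 1 d (log2 fold change 5.19, standard error 0.59, adjusted p = 9.01e-06), and passed with each mouse left out. Gfap was at 159 and 279 (WT) and 330.1 and 252 CPM (cKO) in uninjured mice, and 901 (WT), 936 and 1494 CPM (cKO) at 1 d (log2 fold change 2.25, standard error 0.34, adjusted p = 0.000457), and missed the threshold without cKO 1 d replicate 2 (adjusted p = 0.146). Serpina3n was at 19.9 and 0 (WT) and 14.4 and 0 CPM (cKO) in uninjured mice, and 129 (WT), 288 and 309 CPM (cKO) at 1 d (log2 fold change 4.65, standard error 0.54, adjusted p = 9.01e-06), and missed it without cKO 1 d replicate 2 (adjusted p = 0.0557). In these 3 genes all mice at 1 d lay above all 4 uninjured mice. The highest cell held 37 of 87 Hspb1 and 32 of 90 Serpina3n UMIs at 1 d. Both passed with the highest cell of each mouse set to the next (adjusted p = 0.00606 and 0.00111). A Serpina3n UMI was found in 5.56% (4 of 72), 2.94% (2 of 68) and 26.9% (21 of 78) of cells at 1 d, at 395.5, 367 and 3377 UMIs per cell. The uninjured mice had 5.56 and 0% (WT) and 5 and 0% (cKO), so these shares overlapped. Stat3 was at 75.6 and 46.4 (WT) and 100.5 and 39.8 CPM (cKO) in uninjured mice, and 161 (WT), 252 and 198 CPM (cKO) at 1 d (log2 fold change 1.65, standard error 0.34, adjusted p = 0.0284), and missed the threshold without WT uninjured replicate 2 (adjusted p = 0.0715), cKO 1 d replicate 1 (adjusted p = 0.0527), cKO 1 d replicate 2 (adjusted p = 0.496) and cKO uninjured replicate 2 (adjusted p = 0.0941). The hyaluronan receptor gene Cd44, the metalloprotease gene Adam12 and the cadherin gene Cdh13 rose by 2.97, 3.96 and 3.18 on the log2 scale. Slc5a3, Rgs20, Stk32a, Oxr1 and Col16a1 also rose, the last without separating the mice and not with the replicate block, and Nat8f3 and Gm31135 fell. The count was 1 without cKO 1 d replicate 2 (Hspb1), 8 to 10 without an uninjured cKO mouse or WT uninjured replicate 2, and 13 to 15 without the remaining mice. It was 8 with the highest cell of each mouse set to the next. Of 5 tested acute phase and reactive glia genes 4 rose, all 5 separated upward (3.18% of all genes; 5.77% downward), and the median was 2.97 against −0.08 over all genes tested. Members of the list that did not pass the filter on low counts are not in these values. Of 15 tested heat shock and protein folding genes 1 rose and separated upward (Hspb1), with a median of 0.19 against −0.08 over all genes tested. DESeq2 called 7 genes, all higher, of which 4 were among the 14 (Gfap, Rgs20, Oxr1 and Stk32a), and it gave no adjusted p for the other 10, Hspb1, Serpina3n and Stat3 among them.

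Cluster 6, led by the microglia genes P2ry12 and Tmem119, had 28 genes higher (0.515%) and 5 lower (0.092%) of 5434, in 3 against 3 mice. Ccl12, a chemokine for monocytes, was at 57.5 and 102 (WT) and 55.6 CPM (cKO) in uninjured mice, and 2216 (WT), 704 and 1744 CPM (cKO) at 1 d (log2 fold change 4.45, standard error 0.64, adjusted p = 0.00326), and passed with each mouse left out. P2ry12, the receptor by which resting microglia sense ADP, was at 2142 and 2068 (WT) and 2761 CPM (cKO) in uninjured mice, and 887 (WT), 884 and 864 CPM (cKO) at 1 d (log2 fold change −1.40, standard error 0.31, adjusted p = 0.0365). Calr, a chaperone of the endoplasmic reticulum, was at 513 and 352 (WT) and 315 CPM (cKO) in uninjured mice, and 1596 (WT), 1130.01 and 1129 CPM (cKO) at 1 d (log2 fold change 1.66, standard error 0.32, adjusted p = 0.0186). The groups did not overlap in these genes. P2ry12 missed the threshold without WT 1 d replicate 1 (adjusted p = 0.143), WT uninjured replicate 1 (adjusted p = 0.0813), WT uninjured replicate 2 (adjusted p = 0.0813), cKO 1 d replicate 1 (adjusted p = 0.0978), cKO 1 d replicate 2 (adjusted p = 0.129) and cKO uninjured replicate 2 (adjusted p = 0.117), and Calr without WT 1 d replicate 1 (adjusted p = 0.0827), WT uninjured replicate 2 (adjusted p = 0.0844), cKO 1 d replicate 2 (adjusted p = 0.0505) and cKO uninjured replicate 2 (adjusted p = 0.0979). Further chemokine genes that rose were Ccl3 and Ccl4 (log2 fold changes 3.65 and 3.70), and further genes that fell were Gpr34, Irak2, Irgm2 and Gm10790. Fn1, Lpl and Dab2 rose by 6.56, 5.07 and 4.63 on the log2 scale. The DNA replication genes Pcna and Mcm6 rose as well, by 2.98 and 3.72. Osteopontin (Spp1) was at 0 and 0 (WT) and 0 CPM (cKO) in uninjured mice, and 1884 (WT), 115 and 127 CPM (cKO) at 1 d and did not pass (adjusted p = 0.12). Of 14 homeostatic microglia genes, all tested, 2 fell and 10 separated downward (9.86% of all genes, and 8 of the 10 before TMM scaling), with a median of −0.63 against −0.03 over all genes tested. Of 9 chemokine and cytokine genes 3 rose, 6 separated upward (9.27%) and 1 separated downward (9.86%), with a median of 3.42 against −0.03 over all genes tested. Of 13 heat shock and protein folding genes 2 rose and 10 separated upward, with a median of 1.24 against −0.03 over all genes tested.

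The count of Cluster 6 moved with each mouse left out: 20 without cKO 1 d replicate 1, 8 without WT 1 d replicate 1, 11 without WT uninjured replicate 1, 7 without cKO uninjured replicate 2, 5 without WT uninjured replicate 2 and 2 without cKO 1 d replicate 2. DESeq2 called 46 higher and 32 lower. The 5 microglia markers summed to 20273 and 18092 (WT) and 18215 CPM (cKO) in uninjured mice, and 13792 (WT), 14807 and 16218 CPM (cKO) at 1 d, with C1qa (2665 UMIs) the most abundant at 1 d. The 5 endothelial markers summed to 47.9 and 34.1 (WT) and 167 CPM (cKO) in uninjured mice, and 421 (WT), 213 and 297 CPM (cKO) at 1 d, with Flt1 (47 UMIs) the most abundant. The first were lower and the second higher in every mouse at 1 d. Schwann cell markers summed to 139 and 170.5 (WT) and 167 CPM (cKO) in uninjured mice, and 244 (WT), 278 and 254 CPM (cKO) at 1 d, led by Pmp22 (73 UMIs), with Prx and Scn7a at 0 UMIs at 1 d. Red blood cell markers summed to 9.58 and 79.5 (WT) and 37.1 CPM (cKO) in uninjured mice, and 155 (WT), 81.9 and 106 CPM (cKO) at 1 d, led by Hbb-bs (15 UMIs), with Hbb-bt at 0 UMIs at 1 d. Both were higher in every mouse at 1 d, and the part of these markers in the calls was not tested.

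Cluster 10, annotated as microglia by the authors and led by Apoc4, Lpl and Gpnmb, had 14 genes higher (0.329%) and 6 lower (0.141%) of 4250. Spp1 was at 38.4 and 0 (WT) and 487 CPM (cKO) in uninjured mice, and 9518 (WT), 8459 and 5961 CPM (cKO) at 1 d (log2 fold change 5.57, standard error 0.85, adjusted p = 0.00175). P2ry12 was at 844 and 993 (WT) and 341 CPM (cKO) in uninjured mice, and 38.1 (WT), 60.4 and 81.2 CPM (cKO) at 1 d (log2 fold change −3.39, standard error 0.51, adjusted p = 0.00175). Hspa5, the main chaperone of the endoplasmic reticulum, was at 422 and 94.6 (WT) and 292 CPM (cKO) in uninjured mice, and 1599 (WT), 1601 and 1346 CPM (cKO) at 1 d (log2 fold change 2.45, standard error 0.42, adjusted p = 0.00607). Calr was at 460.4 and 189 (WT) and 292 CPM (cKO) in uninjured mice, and 2018 (WT), 1329 and 1353 CPM (cKO) at 1 d (log2 fold change 2.28, standard error 0.41, adjusted p = 0.00799). Each of the 4 genes separated the groups and passed with each mouse left out. Several genes had 0 UMIs in the uninjured mice: the scavenger receptor gene Msr1 had 111 UMIs at 1 d (at least 12.1-fold higher against a floor of 3 counts over the uninjured mice), Fn1 101 (at least 11-fold), Lgals1 75 (at least 8.18-fold) and Dab2 64 (at least 6.98-fold). These bounds pool the UMIs of the mice and were 7.44, 6.77, 5.03 and 4.29 without WT uninjured replicate 1, and 24.3 for Fn1 without cKO 1 d replicate 2. Fn1 missed the threshold without WT uninjured replicate 1 (adjusted p = 0.0522), and Msr1 without WT uninjured replicate 1 (adjusted p = 0.0522), WT uninjured replicate 2 (adjusted p = 0.0626) and cKO uninjured replicate 2 (adjusted p = 0.0658). Aup1, Adam8, Ccl2, Ran, Tuba1b, Rpl23a and Ybx1 rose as well, and Selplg, the ligand of P-selectin, Sparc, Lpcat2, Cst3 and Adgrg1 fell. Without cKO uninjured replicate 2 the count was 11, of which 8 were among the 20. Without WT uninjured replicate 1 it was 12, of which 6 were, and with the other mice left out it was 14 to 24. With the highest cell of each mouse set to the next it was 135, of which 19 were among the 20, and the median over all genes was then 0.84 on the log2 scale. Calls for Ybx1, Lpcat2 and Adgrg1 were lost with the replicate block.

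Of 19 tested genes of activated microglia and phagocytes in Cluster 10, 3 rose, 10 separated upward (11% of all genes) and 3 separated downward (4.92%). Their median was 1.44 against 0.25 over all genes tested. Of 14 homeostatic genes 3 fell and 6 separated downward (4.92%, and 5 of the 6 before TMM scaling), with a median of −1.15 against 0.25 over all genes tested. Of 12 heat shock and protein folding genes 2 rose (Hspa5 and Calr) and 10 separated upward, with a median of 1.51 against 0.25 over all genes tested. Scaling mattered for the lower genes: with RLE in place of TMM the median of all genes moved by −0.16 on the log2 scale, and calls were 13 higher and 16 lower. DESeq2 gave 49 and 46. The 5 red blood cell markers of this cluster summed to 0 and 804 (WT) and 0 CPM (cKO) in uninjured mice, and 266 (WT), 60.4 and 21293 CPM (cKO) at 1 d, with 1726 UMIs of Hbb-bs in cKO 1 d replicate 2. The 5 microglia markers summed to 17987 and 11441 (WT) and 9744 CPM (cKO) in uninjured mice, and 6357 (WT), 7792 and 10061 CPM (cKO) at 1 d. Both overlapped between the groups, and before TMM scaling the microglia markers were lower in every mouse at 1 d. Neutrophil markers summed to 422 and 236 (WT) and 195 CPM (cKO) in uninjured mice, and 0 (WT), 30.2 and 189 CPM (cKO) at 1 d, lower in every mouse at 1 d, with Csf3r (15 UMIs) the most abundant and Retnlg at 0 UMIs at 1 d. Endothelial markers overlapped after TMM scaling and were higher in every mouse at 1 d before it. The median percent of mitochondrial UMIs per cell was 3.86 and 4.76 (WT) and 5.83 (cKO) in uninjured mice, and 3.39 (WT), 3.67 and 3.67 (cKO) at 1 d, again lower in every mouse at 1 d. The part of these differences in the calls was not tested.

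Some genes were called in more than 1 cluster. Calr, Dab2, Fn1, Ran and Ybx1 were higher and P2ry12 lower in Clusters 6 and 10, Hspb1 and Slc5a3 were higher in Clusters 5 and 7, Lcn2 in Clusters 1 and 5, and Vgf in Clusters 5 and 11. Clusters of a mouse share its library, so these are not independent. In endothelial cells Hspb1 was at 717 and 994 (WT) and 548 and 789 CPM (cKO) in uninjured mice, and 1109 (WT), 614 and 1111 CPM (cKO) at 1 d, with overlapping groups. Without a call, Hspb1 also separated the groups in Clusters 8 and 11, given here as CPM of all summed UMIs, without TMM scaling. It was at 0 in every uninjured mouse tested there. At 1 d it was at 44.7 (WT), 18.5 and 186 CPM (cKO) in Cluster 8. In Cluster 11 it was at 110 (WT), 24.9 and 112 CPM (cKO) at 1 d. On this scale the groups overlapped in Clusters 3, 4, 6, 9 and 10. Whether clusters differ in their response to injury was not tested. Of 330 combinations of 33 gene lists and 10 clusters, 25 held a call.

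Hspa5 and Calr rose together in Cluster 10, and both are known targets of the unfolded protein response, so their promoters are shown. RefSeq promoter sequences (250 bases before to 50 after the start of the gene, build GRCm38.p6) were found for 48 of the 71 called genes and searched on both strands for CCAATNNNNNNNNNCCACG, the letters of the endoplasmic reticulum stress response element, a search chosen after the values were seen. The motif occurred in 39 of 32851 promoters (0.119%) and in 2 of the 48, Hspa5 (chr2:34771840-34772139, plus strand) and Calr (chr8:84846882-84847181, minus strand, with the match on the strand opposite to the one printed). Since the element was chosen for these 2 known targets, its share among the 48 is no result about the called genes. Capitals mark the match, which is a description of letters and not a shown binding site.
Hspa5: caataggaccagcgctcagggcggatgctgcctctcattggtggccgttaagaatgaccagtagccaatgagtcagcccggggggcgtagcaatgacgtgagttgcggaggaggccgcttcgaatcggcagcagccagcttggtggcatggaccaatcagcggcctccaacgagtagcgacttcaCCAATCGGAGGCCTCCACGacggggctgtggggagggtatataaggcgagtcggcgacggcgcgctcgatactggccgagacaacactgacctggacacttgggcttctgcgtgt
Calr: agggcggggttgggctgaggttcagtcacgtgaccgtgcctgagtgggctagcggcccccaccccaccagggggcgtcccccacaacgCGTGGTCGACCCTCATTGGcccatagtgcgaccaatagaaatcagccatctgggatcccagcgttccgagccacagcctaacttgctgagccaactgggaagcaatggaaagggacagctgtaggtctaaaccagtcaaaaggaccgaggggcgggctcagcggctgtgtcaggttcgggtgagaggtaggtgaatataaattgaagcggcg

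The share of cells in each cluster was tested over the 7 mice with an exact permutation test (two-sided), which has 35 arrangements and a smallest possible p of 0.0286. After Benjamini-Hochberg adjustment over the 17 clusters no share passed 0.05, the smallest adjusted p being 0.243, and 2 had an unadjusted p under 0.05. Cluster 10 made up 1.33% (95% interval 0.708 to 2.26%) and 2.02% (95% interval 1.35 to 2.91%) of cells in WT uninjured mice and 0% (95% interval 0 to 1.76%) and 1.29% (95% interval 0.741 to 2.09%) in uninjured cKO mice. At 1 d it made up 3.32% (95% interval 2.31 to 4.61%) in WT and 3.35% (95% interval 2.42 to 4.52%) and 3.20% (95% interval 2.44 to 4.11%) in cKO mice. Every mouse at 1 d was above every uninjured mouse, with means of 3.29 ± 0.081% and 1.16 ± 0.844% (SD, exact permutation p = 0.0286). Cluster 13, labelled Unk in the deposited cell table and led by the ependymal genes Tmem212 and Ccdc153, was at 1.70 ± 0.368% against 0.752 ± 0.286% (SD, exact permutation p = 0.0286). Fibroblasts (Cluster 14), with Dcn and Col1a1 among the leading genes, were at 1.05 ± 0.139% against 0.473 ± 0.212% (exact permutation p = 0.0571), again higher in every mouse at 1 d. Cluster 12, led by antigen-presentation genes such as H2-Aa and Cd74, was at 3.05 ± 1.64% against 0.891 ± 1.03% (exact permutation p = 0.0857). Endothelial cells made up 29.1 ± 9.47% and 26.1 ± 3.69% (exact permutation p = 0.6). With a mouse left out only 20 or 15 arrangements exist (smallest possible p 0.05 or 0.0667), and with the replicate block 18 (0.0556), so these settings could give no p under 0.05. Among cells outside Cluster 2, the moved cells and Cluster 17 (annotated as red blood cells), with 35 arrangements, no share had an unadjusted p under 0.05. Under the cell-name conditions 1 did.

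**Figure D3:**
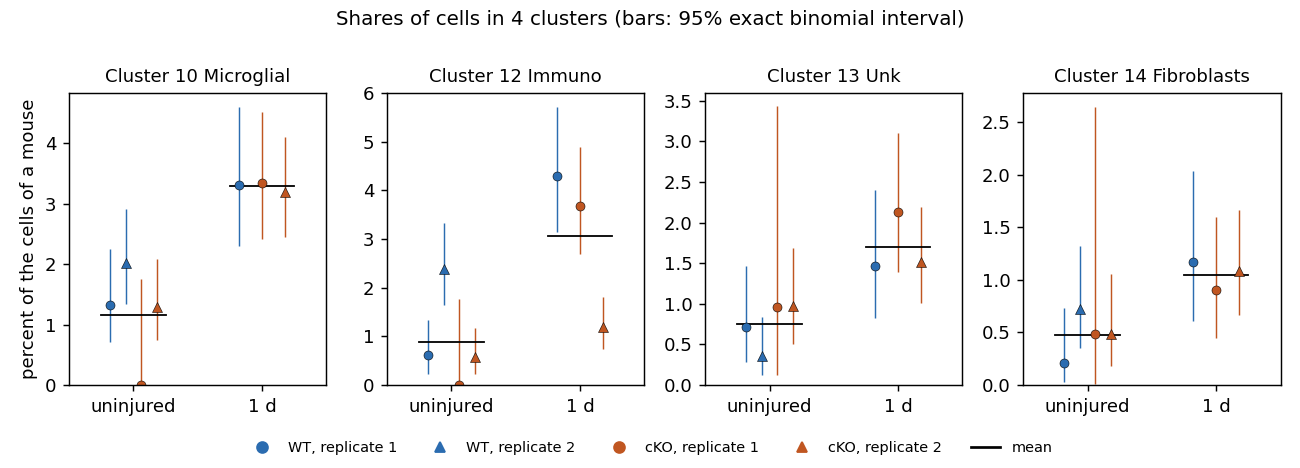
Percent of the cells of each mouse in Clusters 10, 12, 13 and 14, uninjured and at 1 d, with 95% exact binomial intervals for each mouse and a line at the group mean. The 3 mice at 1 d lay above the 4 uninjured mice in Clusters 10, 13 and 14.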

How the data were processed

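The authors aligned reads with Cell Ranger on mm10, kept cells with under 25% mitochondrial UMIs and over 200 genes, joined libraries with Seurat 4.3.0.1 and Harmony in R 4.1.2 and clustered them at resolution 0.5. The deposited matrix holds raw UMI counts of 55487 gene symbols, without normalization. The deposited cell table gives counts and genes per cell, the percent of mitochondrial and haemoglobin UMIs, and other identifiers (animal number, batch and cluster) set by the authors. The table's counts equal the matrix in all 18203 cells. Cells of the authors' filter were used as they are, and doublets were not called or removed.

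UMIs were summed per mouse and cluster (at least 10 cells) and tested with edgeR 4.0.16 in R 4.3.3: TMM, filterByExpr, and a quasi-likelihood fit of the 4 time points over up to 15 mice with the contrast of 1 d minus uninjured, adjusted by Benjamini-Hochberg at a threshold of 0.05. WT 1 d replicate 2 was left out. DESeq2 1.42.0 was the other tool. Shares were compared by exact two-sided permutation. Python 3.11.15, numpy 2.4.6, pandas 2.3.3, scipy 1.17.1 and matplotlib 3.10.9 were used. Positions are from GENCODE vM21 by symbol. Intervals and floors of 3 counts cover counting error only. Deviations of mice with the same replicate number, which equals the authors' batch in 16 of 16 mice, correlated across genes between the time points with r of 0.107 to 0.635 over 10 clusters (median 0.283, above 0.1 in 10), genes not being independent, so the replicate number was also fitted as a block. Called genes were named by size (up to 8 in each direction per cluster, at least 20 UMIs, groups not overlapping) and by list (up to 4 per list and direction). Other genes were named after their values were seen. Members and lists were chosen with earlier results of these data known. Fits were tested on simulated data.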

Additional observations from a re-analysis of the deposited data

Results flagged for a closer look

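Among 31 groups of 4 uninjured values examined, 1 held a mouse far from the others, where chance gives about 1 in 20: neurons (Cluster 3) made up 29.8% of the cells of cKO uninjured replicate 1, which has 208 cells, against 8.98% and 9.18% in the uninjured WT mice and 9.45% in the other uninjured cKO mouse.

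Some genes separated the groups upward in one cluster and downward in another, and these differences between clusters were not tested. Calr had a log2 fold change that was 2.66 higher in Cluster 6 and 3.28 higher in Cluster 10 than in neurons, where it was at 163 and 207 (WT) and 92.4 and 113 CPM (cKO) in uninjured mice, and 0 (WT), 21.9 and 83.4 CPM (cKO) at 1 d, overlapping before TMM scaling. Cebpd, a transcription factor of the acute phase, had a log2 fold change 5.16 higher in Cluster 5 than in Cluster 6, where it was at 91 and 193 (WT) and 111 CPM (cKO) in uninjured mice, and 66.5 (WT), 81.9 and 84.8 CPM (cKO) at 1 d. Pgk1, an enzyme of glycolysis, had one 2.44 higher in Cluster 6 and 1.21 higher in OPCs than in Cluster 7, where it was at 115 and 111 (WT) and 144 and 133 CPM (cKO) in uninjured mice, and 96.6 (WT), 72 and 95.1 CPM (cKO) at 1 d, again overlapping before TMM scaling.

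Clusters with too few mice for a test also held called genes at levels above the uninjured mice present. These values are UMIs per 1000000 summed UMIs of the cluster. Hspb1 averaged 441.4 over the mice at 1 d in Cluster 13 (421, 632 and 271), against 0 in cKO uninjured replicate 2. It averaged 828.4 in fibroblasts (734, 546 and 1205), against 84.8 in WT uninjured replicate 2. In Cluster 2, annotated as astrocytes by the authors, Hspb1 was at 256.2 in cKO 1 d replicate 2 against 122, 20.6 and 0 in 3 uninjured mice, and Lcn2 was at 57.6 against 0, 4.13 and 0. In Cluster 17, annotated as red blood cells, Hspb1 was at 104.3 in 1 mouse at 1 d against 14.1 in 1 uninjured mouse. The leading genes of that cluster held Hist1h2ap, Top2a and Mki67 beside Hba-a1.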

How the results depend on the processing

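Alternatives are given as counts of called genes. Over 59 named calls in 49 genes, 1044 results under alternatives kept the direction in every case, 662 kept the call and 382 did not. RLE scaling and removal of shared barcodes moved no total by over 1.5 times, while the lower calls went from 6 to 16 with RLE in Cluster 10 and from 5 to 8 without shared barcodes in Cluster 6. DESeq2 gave 17, 3, 78, 7, 4 and 95 in Clusters 1, 4, 6, 7, 8 and 10. No filter on low counts gave 87, 18, 23, 63, 109, 61, 17, 16, 59 and 21 in Clusters 1, 3, 4, 5, 6, 7, 8, 9, 10 and 11. The replicate block gave 7, 1, 24 and 1 in Clusters 1, 4, 5 and 8, and beside the calls given above it ended none. The 7 mice alone gave 2, 1, 0 and 0 in Clusters 1, 4, 5 and 11. The conditions of the cell names gave 0, 0, 0, 1, 2 and 0 in Clusters 1, 5, 6, 7, 10 and 11. Genotype in the design gave 4, 10 and 0 in Clusters 5, 10 and 11, under 10% mitochondrial UMIs gave 0 in Cluster 5, at least 30 cells gave 7 in Cluster 6 and no value in Clusters 10 and 11, and removal of cells moved from Cluster 2 gave 10 in Cluster 1. For these 0 counts by edgeR the numbers at an unadjusted p under 0.05 were 87 and 22 (the 7 mice), 242, 186, 316 and 184 (cell names), 140 (genotype) and 131 (mitochondrial). Chosen after seeing the data, cKO 1 d replicate 2 alone at 1 d gave 23, 1, 2, 60, 2, 30, 7 and 10 in Clusters 1, 3, 4, 5, 6, 7, 9 and 11, and the highest cell set to the next gave 2, 8, 135 and 0 in Clusters 5, 7, 10 and 11. Removal of shared barcodes was also chosen after seeing the data. Leaving out each mouse in turn gave 1 to 6, 0 to 1, 0 to 1, 0 to 35, 2 to 20, 1 to 15, 0 to 139, 0 to 2, 11 to 24 and 0 to 1 in the 10 clusters in the order above. No share of cells passed in any setting, and with a mouse left out or the replicate block none could. The causes were not tested. With 414 and 421 UMIs per cell in 2 of 3 mice at 1 d, genes with few UMIs can go uncounted there.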

Other observations

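Lcn2 was also present in clusters that had too few mice for a test. In Cluster 16, annotated as myeloid cells and led by the neutrophil genes Ngp, Retnlg and S100a9, it was at 3275 per 1000000 summed UMIs in WT and 3431 and 1947 in cKO mice at 1 d, and at 5769.6 in WT uninjured replicate 2. Fibroblasts had 0, 273 and 283 per 1000000 at 1 d. In Cluster 17, annotated as red blood cells, a Lcn2 UMI was found in 1 of 17 cells of WT uninjured replicate 2 and in 2 of 30 cells of cKO 1 d replicate 2. In Cluster 12, led by antigen-presentation genes, cKO 1 d replicate 1 had 2031 per 1000000, but all 72 UMIs were in 1 of 45 cells, and WT 1 d replicate 1 had 0. Pericytes, which passed no test, had a Lcn2 UMI in 0% (0 of 75 cells, 95% interval 0 to 4.80%), 5.06% (4 of 79 cells, 95% interval 1.40 to 12.5%) and 13% (7 of 54 cells, 95% interval 5.37 to 24.9%) at 1 d, at median depths of 387, 415 and 1988 UMIs per cell, and 0 in the uninjured mice. The neurons of the same 3 mice at 1 d had 0, 0 and 6.61% at 404, 404 and 2222 UMIs per cell.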
